A study of Mus musculus with 27 samples.

Results

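The genes described here encode 6 STAT proteins: Stat2, Stat3, Stat4, Stat5a, Stat5b and Stat6. They were found as the probes whose gene name on the array equals one of these symbols, which gave 10 of the 55681 non-control probes and 6 of the 24217 named genes. Stat3 and Stat5b had 2 probes each, Stat6 had 3 and the other genes 1. The probe with the highest mean over the arrays stands for its gene, and the other probes are given where they differed. All 10 probes were well above background on all 25 arrays used, and none was saturated on any of them.

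The cells were bone marrow-derived macrophages (BMDM) of female C57BL/6 mice of 6 to 8 weeks, grown from marrow for 7 days in medium conditioned by L929 cells, a mouse line that secretes the macrophage growth factor. The labels name no transgene or deletion. There were 9 groups. Naïve cells received no ligand. Acute cells were stimulated for 4 h with lipopolysaccharide (LPS, a ligand of TLR4) at 100 ng/ml, CpG DNA (TLR9) at 100 µM according to the sample labels, Pam3CSK4 (a lipopeptide, TLR2) at 100 ng/ml or Poly(I:C) (double-stranded RNA, TLR3) at 10 µg/ml. Re-stimulated cells received the same ligand for 24 h, were washed and rested, and received it again for 4 h. The study's methods give a lower CpG dose than the labels, and describe the replicates at one place as different mice and at another as pools of mice. Values are the deposited log2 intensities of a 1-colour array. Each group has 3 arrays, except re-stimulated LPS and acute Pam3CSK4 cells with 2, so that precision is limited by how few there are. Whether arrays of different groups with the same replicate number came from the same mice or pool is not stated. A p-value measures the spread between these arrays.

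The replicate number was also the slide, with slides 1 to 3 shared by naïve cells and 7 other groups and read on 1 day. The 3 acute LPS arrays were on slides 4 to 6, read on 2 other days with an earlier design file. For every comparison with acute LPS, ligand and slide therefore cannot be told apart. Naïve replicate 3 stood apart with 74.6% of probes well above background, where the other arrays used had 42.1 to 54.3%. All 8 macrophage markers (among them Csf1r, Cd68 and Lyz2) were well above background on every array. The summed linear intensity of these markers was 527100 to 598200 in acute LPS cells and 770800 to 799200 in naïve cells. That of 5 neutrophil markers was 2966 to 4586 in acute LPS, 3846 to 13020 in naïve and 9867 to 16180 in re-stimulated LPS cells. Within other groups it varied more, at 3522 to 27650 in acute CpG, 4343 to 18950 in acute Pam3CSK4 and 3725 to 24090 in acute Poly(I:C) cells. In re-stimulated cells it was 4066 to 6456 with CpG, 3583 to 7046 with Pam3CSK4 and 3050 to 22950 with Poly(I:C). In bulk RNA, fewer cells of a type and less RNA per cell cannot be told apart, and the part of these shifts in the results below was not tested.

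STATs are latent transcription factors that wait in the cytoplasm until a Janus kinase bound to a cytokine receptor phosphorylates them on a tyrosine. They then pair through their SH2 domains, enter the nucleus and bind DNA. Type I interferon, made by macrophages after TLR3 and TLR4 signalling, acts through ISGF3, a complex that holds Stat2 and the DNA-binding protein Irf9. Stat3 answers to interleukin 6 and interleukin 10 and carries the anti-inflammatory action of the latter in macrophages. Stat4 answers to interleukin 12 and type I interferon and is best known from T cells and NK cells. Stat5a and Stat5b, close copies of each other, answer to GM-CSF and to interleukins 2, 3 and 7. Stat6 answers to interleukins 4 and 13 and directs alternative macrophage activation.

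The promoters of 4 of these genes are shown, because the levels of these genes moved most between groups and because ISGF3 and STAT dimers bind DNA by short known motifs. Sequences are from RefSeq (GRCm38.p6), from 250 bases before to 50 after a transcription start, 5′ to 3′ on the gene's strand. Capitals mark matches on either strand to the core of the interferon-stimulated response element (GAAA, any 2 bases, GAAA), to TTCNNNGAA, the GAS element of STAT dimers, or to the wider spacing bound by Stat6 (TTC, any 4 bases, GAA). No other motif was searched.
Stat2, chr10:128270248-128270547, plus strand: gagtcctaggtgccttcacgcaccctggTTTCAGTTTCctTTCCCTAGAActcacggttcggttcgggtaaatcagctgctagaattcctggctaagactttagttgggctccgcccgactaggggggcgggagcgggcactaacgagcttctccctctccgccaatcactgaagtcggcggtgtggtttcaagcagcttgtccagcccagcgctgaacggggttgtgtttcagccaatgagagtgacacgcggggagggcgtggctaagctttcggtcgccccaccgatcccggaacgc
Stat4, second start, chr1:52007990-52008289, plus strand: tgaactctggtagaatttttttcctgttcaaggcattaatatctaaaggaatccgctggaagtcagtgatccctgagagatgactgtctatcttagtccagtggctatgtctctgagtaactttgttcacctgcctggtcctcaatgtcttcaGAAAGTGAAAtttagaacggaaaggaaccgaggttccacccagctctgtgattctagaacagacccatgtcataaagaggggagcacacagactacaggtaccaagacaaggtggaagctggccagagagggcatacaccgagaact
Stat3, chr11:100939491-100939790, minus strand: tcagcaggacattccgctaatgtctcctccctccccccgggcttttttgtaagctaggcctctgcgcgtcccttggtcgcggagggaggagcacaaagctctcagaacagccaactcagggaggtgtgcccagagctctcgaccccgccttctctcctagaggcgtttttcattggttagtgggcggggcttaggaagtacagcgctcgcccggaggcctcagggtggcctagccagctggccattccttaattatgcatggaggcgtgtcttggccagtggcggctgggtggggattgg
Stat5a, second start, chr11:100860234-100860533, plus strand: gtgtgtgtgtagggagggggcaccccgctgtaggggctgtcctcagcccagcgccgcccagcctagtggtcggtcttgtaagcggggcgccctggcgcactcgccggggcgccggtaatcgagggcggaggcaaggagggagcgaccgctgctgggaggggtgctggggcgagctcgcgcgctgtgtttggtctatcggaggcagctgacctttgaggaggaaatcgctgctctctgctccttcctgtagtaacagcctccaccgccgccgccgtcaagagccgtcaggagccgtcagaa
The interferon core stood at base -222 of the Stat2 promoter, and the wider-spaced motif began at base -210, 2 bases after it. The second Stat4 promoter held the interferon core at base -97. The table has 9 promoters for the 6 genes, 1 each for Stat2, Stat3 and Stat6 and 2 each for the others. Of these 9, 2 held the interferon core, 1 the wider-spaced motif and 0 held TTCNNNGAA. Over all 32851 promoters of the table the shares were 3.44%, 6.95% and 8.30%. A match is a description of the letters only.

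On the array's own annotation (mm9), the Stat2 probe lies at chr10:127729834-127729893 and the first Stat6 probe at chr10:127097689-127097748. The Stat4 probe lies at chr1:52163802-52163861. Stat5b, Stat5a and Stat3 are neighbours on chromosome 11, with first probes at chr11:100642045-100642104 on the minus strand, chr11:100746373-100746432 on the plus strand and chr11:100749598-100749657 on the minus strand. The Stat5a and Stat3 probes are 3165 bases apart. Exon annotation for this build was not used here.

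**Figure D1:**
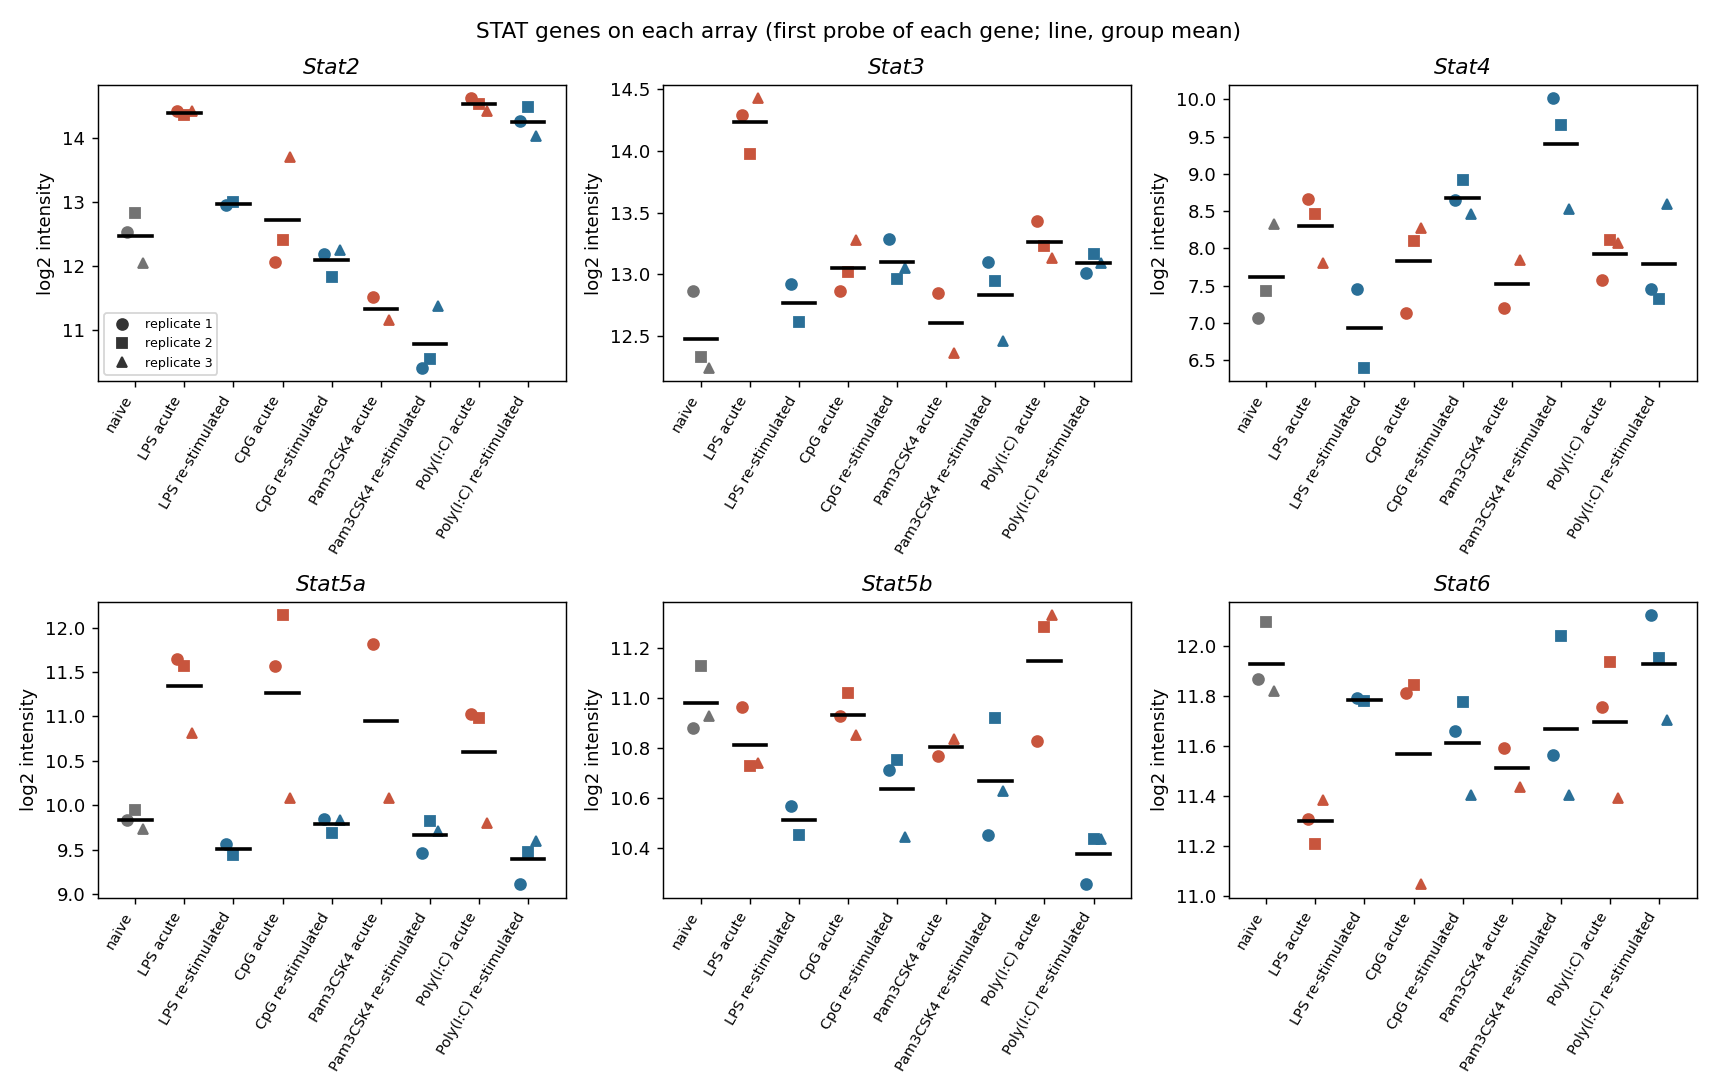
The log2 intensity (y axis) of the first probe of each gene is plotted for the 9 groups (x axis), with 1 point per array, its shape giving the replicate and its colour the stage (grey naïve, red acute, blue re-stimulated), and a line at the group mean. Stat2 lay between 14.35 and 14.61 on all 6 acute LPS and Poly(I:C) arrays, and Stat5a was high on replicates 1 and 2 of the acute groups but lower on replicate 3.

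Acute stimulation asked which STAT genes respond within 4 h. Probes were tested where 2 or more arrays of 1 of the groups read them well above background, and a gene was called changed at an adjusted p under 0.05 and a difference of at least 1.5-fold (limma). With LPS, Stat2, Stat3 and Stat5a rose and Stat6 fell, 4 of 6 genes, where 26.5% of the 29933 probes tested were called. With Poly(I:C), Stat2 rose, 1 of 6 genes against 6.03% of probes. With CpG 0 of 6 genes were called against 5.72% of probes. With Pam3CSK4 0 of 6 were called, and 0% of 27843 probes were, although 3458 had an unadjusted p under 0.05. The median difference over the 6 genes was 1.10 with LPS, 0.24 with CpG, -0.13 with Pam3CSK4 and 0.54 with Poly(I:C) on the log2 scale, and the medians over all tested probes were -0.01, -0.07, 0.01 and -0.10. The replicate numbers paired the arrays of CpG and naïve cells, and with the replicate as a block the CpG comparison called 586 probes in place of 1598.

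Re-stimulation asked whether the response to a second dose differed from the first. With LPS, Stat2, Stat3, Stat4 and Stat5a fell, 4 of 6 genes, against 34.2% of 28592 probes. No member gene was called with CpG, Pam3CSK4 or Poly(I:C), where 3.56%, 0% and 4.93% of probes were. For Pam3CSK4, 3461 probes had an unadjusted p under 0.05. Median differences over the 6 genes were -1.40 with LPS, -0.13 with CpG, 0.01 with Pam3CSK4 and -0.22 with Poly(I:C), and between -0.02 and 0.06 over all probes. Against naïve cells, re-stimulated cells had 1 call with Poly(I:C), Stat2 higher, and 1 with Pam3CSK4, Stat2 lower. The background was 9.03% of probes with Poly(I:C) and 5.36% with Pam3CSK4. Re-stimulated LPS and CpG cells had 0 of 6 genes called against naïve cells, where 5.66% and 13.1% of probes were called. With the replicate as a block, the Pam3CSK4 and Poly(I:C) comparisons called 6 and 1701 probes in place of 1497 and 2565. The acute and re-stimulated comparisons share their naïve or acute arrays.

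**Figure D2:**
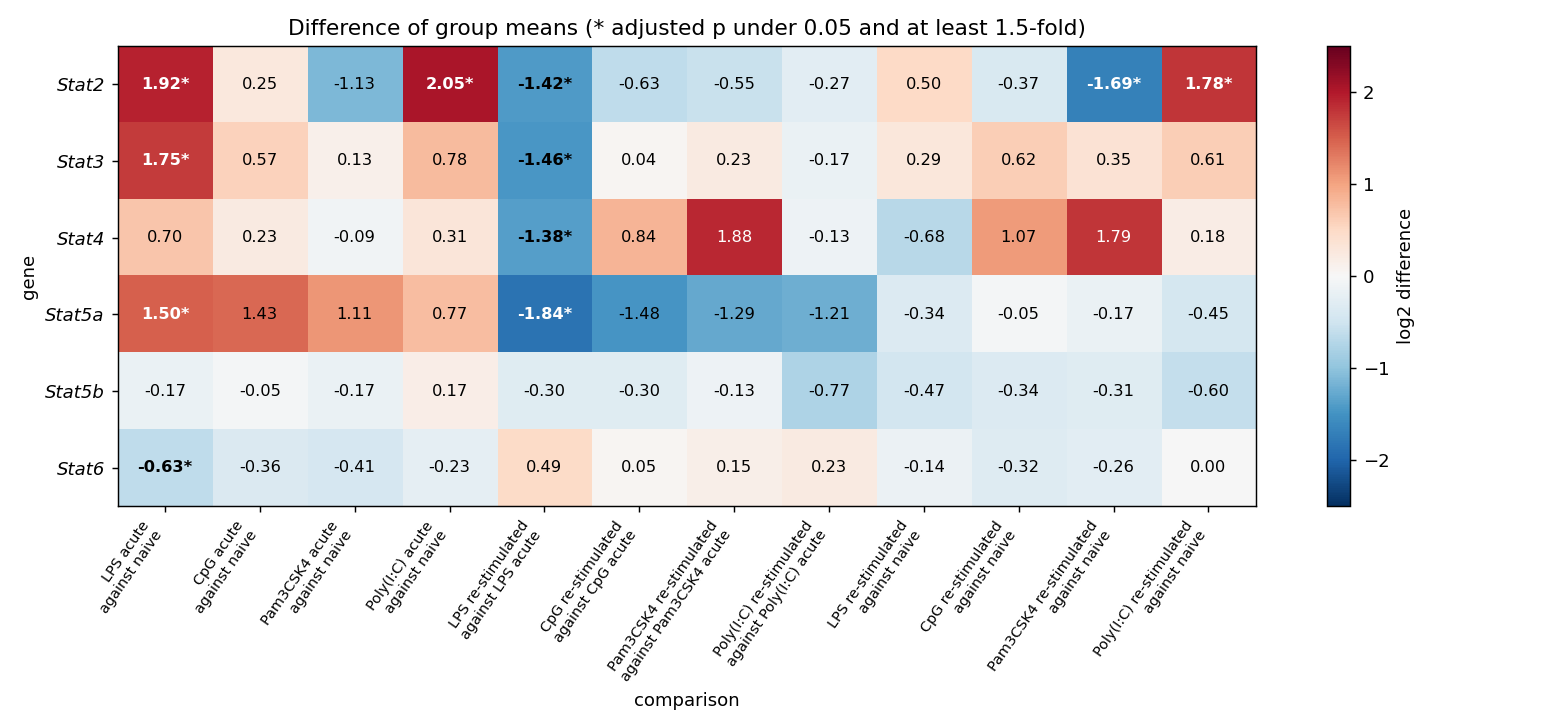
The grid shows the log2 difference of group means for each gene (rows) in the 12 comparisons (columns), coloured from blue for lower to red for higher, with an asterisk where the difference was called. Stat2, Stat3 and Stat5a were called up in acute LPS cells and down again in re-stimulated LPS cells, and the Stat5b row has no asterisk.

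Stat2, the DNA-tethered transactivator of ISGF3, had the widest range of the 6 genes, 3.73 log2 units between its highest and lowest group means. Acute Poly(I:C), acute LPS and re-stimulated Poly(I:C) cells came first, then re-stimulated LPS, acute CpG, naïve and re-stimulated CpG cells, and last acute and re-stimulated Pam3CSK4 cells. Neighbours in this order overlapped except acute Poly(I:C) over acute LPS, re-stimulated Poly(I:C) over re-stimulated LPS, and re-stimulated CpG over acute Pam3CSK4. Naïve arrays measured 12.54, 12.82 and 12.05. Acute LPS arrays measured 14.41, 14.35 and 14.42, and acute Poly(I:C) arrays 14.61, 14.52 and 14.42. Both acute groups lay above every naïve array. The difference was 1.92 ± 0.24 (SE) for LPS, a 3.78-fold rise (adjusted p = 0.00337), and 2.05 ± 0.24 for Poly(I:C), a 4.13-fold rise (adjusted p = 0.0119). The Poly(I:C) rise was present on each of the 3 slides, at 2.07, 1.70 and 2.37. Its adjusted p rose to 0.0518 without naïve replicate 1, 0.0680 without Poly(I:C) replicate 1 and 0.0718 without replicate 2, with differences of 2.00 to 2.08.

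On re-stimulation Stat2 was called lower than in acute cells with LPS alone, and its change differed between no pair of ligands at the threshold (LPS minus Poly(I:C) -1.15 ± 0.48, adjusted p = 0.187). Re-stimulated LPS arrays measured 12.95 and 13.00, 1.42 ± 0.18 below acute cells (adjusted p = 0.00307) and above all 3 naïve arrays, with a difference from naïve of 0.50 that was not called (adjusted p = 0.330). Re-stimulated Poly(I:C) arrays kept high values of 14.26, 14.47 and 14.02. They were 1.78 ± 0.26 above naïve cells (adjusted p = 0.0173), with 1.72, 1.65 and 1.97 on the 3 slides, and differed from acute Poly(I:C) by -0.27 (adjusted p = 0.408). The adjusted p against naïve cells was 0.0630 without naïve replicate 1, and 0.0764 and 0.0755 without Poly(I:C) re-stimulated replicates 1 and 2, with differences of 1.67 to 1.81.

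With CpG the Stat2 values went apart. Acute CpG arrays measured 12.06, 12.41 and 13.70, so that the slide differences from naïve cells were -0.48, -0.41 and 1.65. Without acute CpG replicate 3 the mean difference turned from 0.25 to -0.23. Re-stimulated CpG arrays lay close together at 12.20, 11.84 and 12.25.

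Pam3CSK4 cells had the lowest Stat2 values. Acute arrays measured 11.52 and 11.16 and re-stimulated arrays 10.42, 10.56 and 11.38, all below the lowest naïve array. The acute difference of -1.13 ± 0.31 was not called (adjusted p = 0.303). The re-stimulated difference from naïve was -1.69 ± 0.34, 3.22-fold lower (adjusted p = 0.0475), at -2.12, -2.27 and -0.67 on the 3 slides. With the replicate as a block, which pairs these arrays, the adjusted p was 0.0982. It was 0.139 and 0.157 without naïve replicates 1 and 2, and 0.161, 0.143 and 0.0513 without Pam3CSK4 re-stimulated replicates 1, 2 and 3, with differences of -1.98 to -1.50. It was also lost with median scaling (-0.98, adjusted p = 0.527), with the 75th percentile scaling (-1.36, adjusted p = 0.0568) and with no detection filter (adjusted p = 0.0926).

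Irf9, the partner that gives ISGF3 its DNA contact, was not called where Stat2 was. Its naïve mean was 12.68, and its difference from naïve was 0.34 in acute LPS cells (adjusted p = 0.254) and 0.45 in acute Poly(I:C) cells (adjusted p = 0.205), neither called. In re-stimulated Poly(I:C) cells it was 0.63 ± 0.20 (adjusted p = 0.105), also not called. Acute Poly(I:C) arrays of Irf9 measured 13.18, 13.09 and 13.15 and re-stimulated ones 13.25, 13.50 and 13.19, all above every naïve array. Acute LPS arrays, at 13.06, 13.17 and 12.84, overlapped the naïve arrays. In re-stimulated Pam3CSK4 cells Irf9 differed from naïve by -1.05 ± 0.29 (adjusted p = 0.0912), with array values of 11.15, 11.63 and 12.11 against 12.73, 12.88 and 12.45. Irf9 was called in none of the 12 comparisons.

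The 20 ISGF3 target genes, interferon-stimulated genes such as Rsad2, Ifit1, Mx1 and Isg15, were described by the same tests. In acute LPS cells 17 of 20 rose and none fell, with a median difference of 3.87, and in acute Poly(I:C) cells 16 of 20 rose and none fell, with a median of 3.49. In acute CpG cells 5 of 20 rose, and 0 did with the replicate as a block, while 17 rose with the block in acute Poly(I:C) cells. Over all probes 26.5% were called with LPS, 6.03% with Poly(I:C) and 5.72% with CpG. Rsad2, which makes an antiviral nucleotide, had the largest called rise each time, at 7.18 with LPS, 6.79 with Poly(I:C) and 4.24 with CpG (adjusted p = 0.000204, 0.00114 and 0.0491, the last 0.0973 with the block). On LPS re-stimulation 13 of 20 fell and 3 rose, with Rsad2 lower by -3.88 and Irf7, a factor that amplifies interferon production, higher by 2.22 (adjusted p = 0.000543 and 0.00282). On Poly(I:C) re-stimulation 3 fell and 2 rose, 4 and 4 with the block, and Rsad2 and Irf7 again had the largest called fall and rise, -1.67 and 2.05 (adjusted p = 0.0227 and 0.0424). Over all probes 34.2% were called on LPS and 4.93% on Poly(I:C) re-stimulation. Against naïve cells 19 of 20 rose in re-stimulated Poly(I:C) cells, 12 in LPS, 9 in CpG and 0 in Pam3CSK4 cells, where 1 fell. With the block 18, 16, 7 and 0 rose and 0 fell. Over all probes 9.03%, 5.66%, 13.1% and 5.36% were called without the block.

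Within acute CpG cells, replicate 3 stood apart for Stat2 and these targets alike. The median over the 20 targets was 12.90, 13.24 and 15.15 on the 3 acute CpG arrays, and interferon beta (Ifnb1) measured 9.05, 8.30 and 12.25 there. Acute Poly(I:C) arrays had target medians of 15.74, 15.63 and 15.38 and Ifnb1 values of 12.22, 11.68 and 10.99. In naïve cells Ifnb1 was well above background on 1 of 3 arrays.

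**Figure D3:**
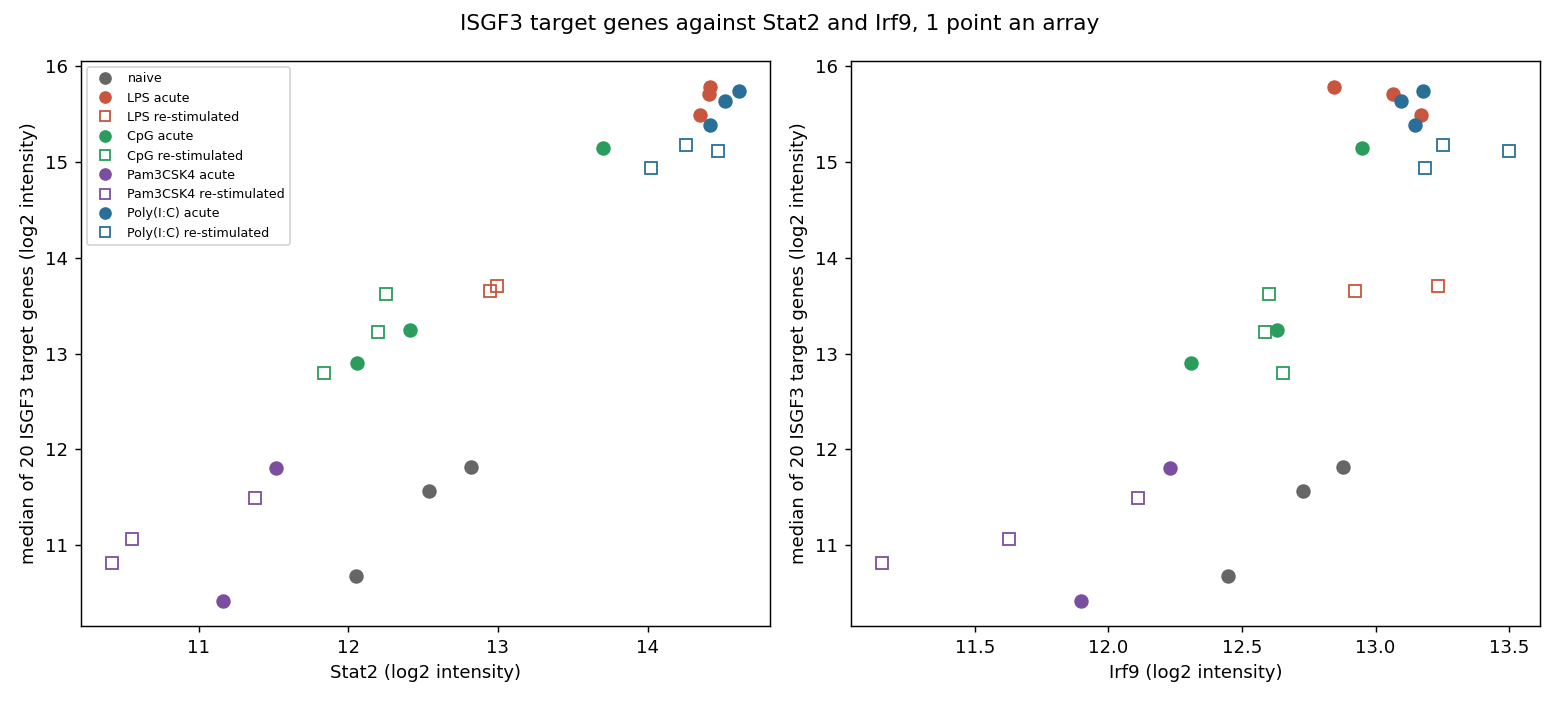
The median log2 intensity of the 20 ISGF3 target genes (y axis) is plotted against the log2 intensity of Stat2 (left) and Irf9 (right), with 1 point per array, filled for naïve and acute and open for re-stimulated cells. Naïve arrays had Stat2 values of 12.05 to 12.82 with target medians of 10.68 to 11.82, below the 12.80 to 13.62 of re-stimulated CpG arrays with Stat2 at 11.84 to 12.25.

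Stat3, the STAT of the interleukin 6 and interleukin 10 receptors, was highest in acute LPS cells and lowest in naïve cells. Naïve arrays measured 12.86, 12.33 and 12.25 and acute LPS arrays 14.29, 13.98 and 14.42, with no overlap. The rise was 1.75 ± 0.25, or 3.36-fold (adjusted p = 0.00478). Re-stimulated LPS arrays measured 12.92 and 12.62, 1.46 ± 0.23 below acute cells (adjusted p = 0.00570), and overlapped the naïve arrays. The other stimulated groups lay between 12.37 and 13.43, below every acute LPS array, and all neighbours among them overlapped.

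The second Stat3 probe (chr11:100759946-100760005), on transcript NM_011486, gave the same LPS calls, 2.00 in acute cells (adjusted p = 0.00444) and -1.43 on re-stimulation (adjusted p = 0.0113). It was also called higher in acute Poly(I:C) cells, at 1.32 (adjusted p = 0.0270, 0.0513 with the replicate as a block), where the first probe gave 0.78 (adjusted p = 0.108). In re-stimulated CpG cells against naïve it gave 0.94 (adjusted p = 0.0367, 0.0651 with the block), and the first probe 0.62 (adjusted p = 0.124). Both probes were higher than naïve in all 8 stimulated groups, by 0.13 to 2.00 on the log2 scale.

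Of 14 Stat3 target genes, 5 rose and 1 fell in acute LPS cells, where 26.5% of all probes were called. In CpG cells 3 rose, 2 with the block, against 5.72% of probes, and in Poly(I:C) cells 2 rose and 1 fell against 6.03%. Socs3, the feedback inhibitor of the interleukin 6 receptor, had the largest called rise with each, at 5.66, 7.50 and 4.96 (adjusted p = 0.00999, 0.0239 and 0.0495, the last 2 becoming 0.0690 and 0.0797 with the block). Cebpb, a factor of the acute-phase response, fell by 1.06 with LPS and by 0.87 with Poly(I:C) (adjusted p = 0.0107 and 0.0443, the latter 0.0555 with the block). On LPS re-stimulation 3 of 14 rose and 5 fell, against 34.2% of probes, with Cebpb higher by 2.56 and Il10 lower by -4.09 (adjusted p = 0.000679 and 0.00143). On CpG re-stimulation 2 fell, 3 with the block, with Etv3 at -2.43 (adjusted p = 0.0310). On Poly(I:C) re-stimulation 1 rose, 2 with the block, Cebpb by 1.72 (adjusted p = 0.0171). Over all probes 3.56% were called on CpG and 4.93% on Poly(I:C) re-stimulation.

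Stat5a, with Stat5b the STAT of GM-CSF signalling, rose in acute LPS cells. The 4 acute groups had the highest means, then naïve cells and then the 4 re-stimulated groups, and each group overlapped its neighbour. Re-stimulated groups differed from naïve by -0.45 to -0.05, none called (adjusted p = 0.20 to 0.84). With median scaling these differences were 0.17 to 0.94. Naïve arrays measured 9.83, 9.95 and 9.74. Acute LPS arrays measured 11.65, 11.56 and 10.81, a rise of 1.5 ± 0.27 or 2.83-fold (adjusted p = 0.0106). Re-stimulated LPS arrays measured 9.57 and 9.44, 1.84 ± 0.30 below acute cells (adjusted p = 0.00635) and below all naïve arrays, with a difference from naïve of -0.34 that was not called (adjusted p = 0.315).

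The other ligands gave the same order of means with a wide spread between replicates. Acute CpG arrays measured 11.57, 12.14 and 10.09, acute Pam3CSK4 arrays 11.82 and 10.08, and acute Poly(I:C) arrays 11.03, 10.98 and 9.80. The lowest of each was replicate 3, on slide 3, and acute LPS replicate 3, on a slide of its own, was also the lowest of its group. Mean differences from naïve were 1.43, 1.11 and 0.77 (adjusted p = 0.174, 0.479 and 0.288), none called. Without acute CpG replicate 3 the CpG difference was 2.02 (adjusted p = 0.0299), and without acute Poly(I:C) replicate 3 the Poly(I:C) difference was 1.17 (adjusted p = 0.0243). Leaving out other arrays went the other way, with an adjusted p of 0.377 without acute CpG replicate 2 and 0.612 without acute Poly(I:C) replicate 1.

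On re-stimulation Stat5a differed from acute cells by -1.48 with CpG, -1.29 with Pam3CSK4 and -1.21 with Poly(I:C) (adjusted p = 0.155, 0.366 and 0.105). It was lower on every slide, by -0.25 to -2.46 with CpG, -0.37 and -2.35 with Pam3CSK4 and -0.21 to -1.92 with Poly(I:C), with the smallest difference on slide 3 each time. Without acute replicate 3 the differences were -2.07 for CpG (adjusted p = 0.0138) and -1.61 for Poly(I:C) (adjusted p = 0.0230). The adjusted p was 0.323 for CpG without CpG re-stimulated replicate 2, and 0.265 for Poly(I:C) without acute Poly(I:C) replicate 1. The 11 re-stimulated arrays lay between 9.11 and 9.84.

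**Figure D4:**
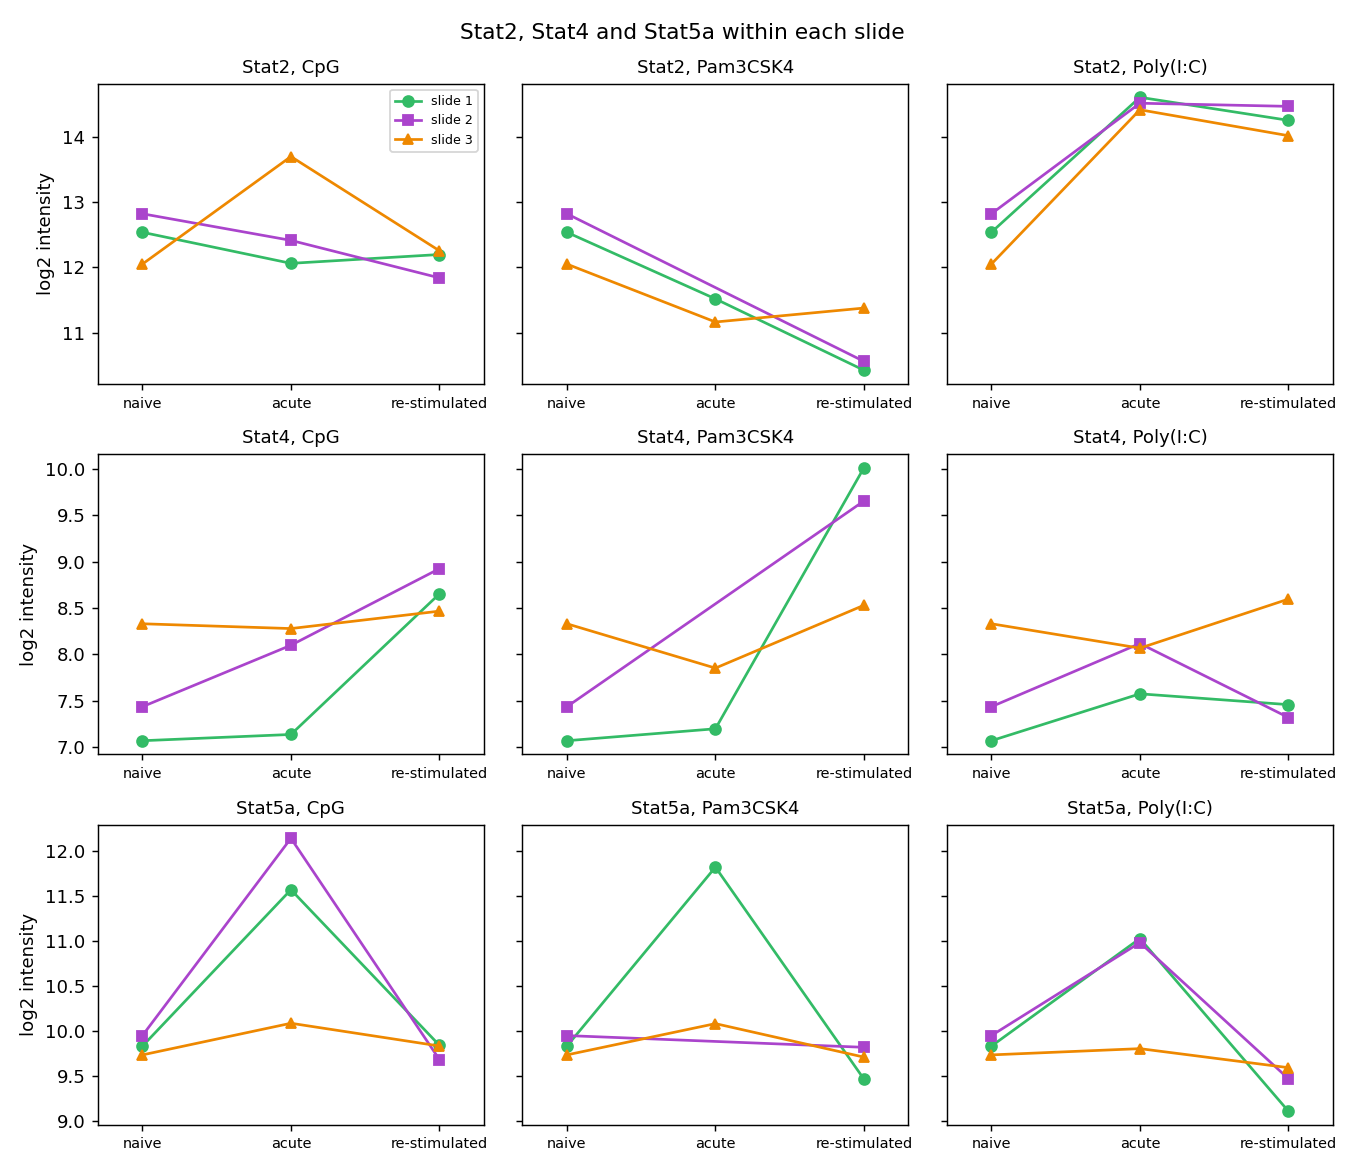
The log2 intensity (y axis) of Stat2, Stat4 and Stat5a (rows) is plotted for naïve, acute and re-stimulated cells (x axis) of 3 ligands (columns), with a line for each slide, which for slide 2 skips acute Pam3CSK4. Stat5a was 0.07 to 0.35 higher in acute than in naïve cells on slide 3 and further above on the other slides, and Stat4 on re-stimulation with Pam3CSK4 reached 10.01 on slide 1 and 8.53 on slide 3.

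Stat5b, next to Stat5a on chromosome 11, varied little, with a span of 0.77 between group means and no call for its first probe. Neighbouring groups overlapped except re-stimulated LPS over re-stimulated Poly(I:C). Its naïve arrays measured 10.88, 11.13 and 10.93, and its acute LPS arrays 10.96, 10.73 and 10.74. The lowest group was re-stimulated Poly(I:C), at 10.26, 10.44 and 10.44, against acute arrays of 10.83, 11.28 and 11.33. That difference of -0.77 ± 0.20 was present on each slide (-0.57, -0.85 and -0.89) and was not called (adjusted p = 0.0775), and in 1 fit of all 9 groups it was (adjusted p = 0.00392). The second Stat5b probe, at chr11:100642187-100642246 on the same transcript, gave -0.81 there (adjusted p = 0.0537), and in re-stimulated against acute LPS cells -0.78 (adjusted p = 0.0219), where the first gave -0.30 (adjusted p = 0.278). All 4 re-stimulated groups had lower means than naïve and than their acute groups on both Stat5b probes. In acute LPS cells the second probe was 0.29 above naïve and the first -0.17, neither called. How far the Stat5a and Stat5b probes detect each other's transcript was not tested.

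Of 10 Stat5 target genes, 3 rose and 3 fell in acute LPS cells, against the 26.5% of all probes called there. In CpG cells 3 rose and 1 fell, against 5.72% of probes, and in Poly(I:C) cells 1 rose, against 6.03%. Ccnd2, a cyclin of the G1 phase, rose by 5.35 with LPS, and Ccnd1, another, fell by 1.08 (adjusted p = 0.00103 and 0.0230). With CpG, Cish, a feedback inhibitor of Stat5, rose by 4.26 and Ccnd1 fell by 1.53 (adjusted p = 0.0295 and 0.0312, the latter 0.0520 with the block). With Poly(I:C) the call was Pim1, a survival kinase, at 1.80 (adjusted p = 0.0134), and with the block 3 rose and 1 fell. On LPS re-stimulation 4 rose and 4 fell, against 34.2% of all probes, from Socs2 at 1.45 to Ccnd2 at -3.78. The Socs2 rise was between low means of 4.02 and 5.46. On CpG re-stimulation 3 fell, against 3.56% of all probes, with Cish the lowest at -3.06 (adjusted p = 0.0390). On Poly(I:C) re-stimulation Id2 alone rose, by 1.60 (adjusted p = 0.0269), against 4.93% of all probes, and 2 rose with the block.

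Stat6, the STAT of interleukins 4 and 13, had its lowest mean in acute LPS cells on every probe. On the first probe the naïve and re-stimulated Poly(I:C) means were highest, both 11.93. The other probes were highest in re-stimulated LPS cells, at 9.74 and 6.77 against 9.64 and 6.56 in naïve cells. On the first probe neighbouring groups overlapped except acute Pam3CSK4 over acute LPS. Naïve arrays measured 11.87, 12.10 and 11.82, and acute LPS arrays 11.31, 11.21 and 11.38. The groups did not overlap, and the difference was -0.63 ± 0.18, or 1.54-fold (adjusted p = 0.0455). The call ended without naïve replicate 1 or 2 (adjusted p = 0.0988 and 0.147) and without acute LPS replicate 1, 2 or 3 (0.121, 0.150 and 0.0587), with differences of -0.67 to -0.54. It also ended with the 75th percentile scaling (-0.50, adjusted p = 0.0847), median scaling (-0.21, adjusted p = 0.907), no detection filter (0.118) and the mean over its probes (0.0946). The other Stat6 probes, at chr10:127095694-127095753 and chr10:127083983-127084042, gave -0.68 and -0.51 (adjusted p = 0.0643 and 0.373).

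Re-stimulated LPS arrays measured 11.79 and 11.78 for Stat6, above all acute LPS arrays. The difference of 0.49 was not called (adjusted p = 0.0919), while its other probes gave 0.78 (adjusted p = 0.0334) and 0.73 (adjusted p = 0.196). Acute means with the other ligands were 0.23 to 0.41 below naïve on the first probe, none called, and CpG acute replicate 3 was the lowest single array at 11.05.

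Of the Stat6 target genes, markers of alternative activation, 3 of 11 tested rose and 3 fell in acute LPS cells, against 26.5% of all probes. Cish rose by 3.76 and Egr2, a zinc finger factor, fell by 3.34 (adjusted p = 0.00452 and 0.00255). With CpG 2 rose and 1 fell, Cish by 4.26 and Pparg, a lipid-sensing nuclear receptor, by -1.24 (adjusted p = 0.0310, 0.0639 with the block). Acute Poly(I:C) cells had 0 of 10 called, 1 with the block. Over all probes 5.72% were called with CpG and 6.03% with Poly(I:C). On LPS re-stimulation 5 of 12 rose and 3 fell, against 34.2% of all probes, and on CpG re-stimulation 1 rose and 2 fell, against 3.56%. Arg1, the arginase of alternatively activated macrophages, was not well above background on any acute LPS or CpG array, and re-stimulated cells were at least 596-fold higher with LPS and at least 129-fold higher with CpG (adjusted p = 0.000163 and 0.0245). Such a bound sets the mean of the higher group against the lowest signal well above background on each array of the other, or the probe's own signal where higher. Mrc1, the mannose receptor, fell on re-stimulation, with differences of -4.66 with LPS, -3.17 with CpG and -4.47 with Poly(I:C) (adjusted p = 0.000524, 0.0446 and 0.0201). Its fall was the only call of this list on Poly(I:C) re-stimulation without the block, 1 of 11 tested against 4.93% of all probes.

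Stat4, the STAT of the interleukin 12 receptor, was highest in re-stimulated Pam3CSK4 cells and lowest in re-stimulated LPS cells, 2.47 log2 units apart, and each group overlapped its neighbour in the order of means. Those arrays measured 10.01, 9.65 and 8.53, against 7.20 and 7.85 in acute Pam3CSK4 and 7.07, 7.43 and 8.33 in naïve cells, all lower. The differences of 1.88 ± 0.49 from acute and 1.79 ± 0.50 from naïve cells were not called (adjusted p = 0.229 and 0.0928). On the slides they were 2.82 and 0.68 against acute cells, and 2.95, 2.22 and 0.20 against naïve cells. Without naïve replicate 3, the array with the most probes above background, the difference from naïve was 2.15 (adjusted p = 0.0353), and in 1 fit of all 9 groups it was called at the original size (adjusted p = 0.00928). Without Pam3CSK4 re-stimulated replicate 1 the adjusted p of the difference from naïve was 0.248.

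Re-stimulated CpG cells had the next highest Stat4 values, 8.65, 8.92 and 8.46, above all naïve arrays by a mean of 1.07 ± 0.35 (adjusted p = 0.0981). Without naïve replicate 3 this was 1.43 (adjusted p = 0.00785), and without CpG re-stimulated replicate 2 the adjusted p was 0.2515. Acute LPS cells differed from naïve by 0.70 (adjusted p = 0.232), and by 1.05 without naïve replicate 3 (adjusted p = 0.0363). Without naïve replicate 1 the adjusted p was 0.485. Re-stimulated LPS arrays measured 7.45 and 6.40, against 8.66, 8.46 and 7.80 in acute LPS cells. The fall of 1.38 ± 0.40 was called (adjusted p = 0.0403). It was not called without acute LPS replicate 1 or 2 (adjusted p = 0.0876 and 0.0911), and without re-stimulated replicate 2 it was -0.85 (adjusted p = 0.199). With all 27 arrays, which adds re-stimulated LPS replicate 3, it was -0.37 (adjusted p = 0.816), and with no detection filter and with slide as a random block the adjusted p was 0.0656 and 0.0621.

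Of the T cell markers, Cd3d, Cd3g and Cd8a were well above background on 1, 2 and 1 of 25 arrays, and Cd3e, Cd4 and Lck on all. The 4 NK cell markers were above it on 0 to 6 arrays. The summed linear intensity of the 6 T cell markers was 3594 to 3611 in acute and 2759 to 3887 in re-stimulated Pam3CSK4 cells, and that of the NK cell markers 54.2 to 81.1 and 36.3 to 53.5. With LPS, where the Stat4 fall was called, the T cell sum was 4674 to 6310 in acute and 2626 to 4148 in re-stimulated cells, against 3238 to 3884 in naïve cells. Of the 3 T cell markers tested, 1 was called higher in acute LPS cells and 1 lower on LPS re-stimulation, against 26.5% and 34.2% of all probes called. The sum of 4 dendritic cell markers was 68310 to 80680 in acute and 33660 to 59830 in re-stimulated Pam3CSK4 cells, and 65330 to 123800 and 37830 to 45410 in the LPS groups, with Xcr1 above background on 0 arrays. That sum was almost wholly Siglech, with mean log2 values of 16.18 in acute and 15.37 in re-stimulated Pam3CSK4 cells. Flt3 had 4.23 and 5.03 there, and Zbtb46 5.04 and 4.98. That of 4 B cell markers was 241.8 to 398.8 in acute and 259.9 to 1340 in re-stimulated Pam3CSK4 cells. It was 196.9 to 376.6 and 225.8 to 1172 in the CpG groups, 397.3 to 941.9 and 244.9 to 341.9 in the LPS groups, and 267.1 to 548.9 in naïve cells. The part of these shifts in the Stat4 values was not tested.

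Of the Stat4 target genes, 1 of 5 tested rose and 1 fell in acute LPS cells, where 26.5% of all probes were called. These genes were Map3k8, a MAP kinase kinase kinase, at 2.49 and Hlx, a homeobox factor, at -1.15 (adjusted p = 0.0142 and 0.0219). On LPS re-stimulation they moved the other way, by -2.60 and 1.04 (adjusted p = 0.000881 and 0.0224), and 1 more gene fell, against 34.2% of all probes. Tbx21, the T helper 1 factor, was the 1 of 6 called in acute Poly(I:C) cells, against 6.03% of all probes. It was higher by 6.02 (adjusted p = 0.0134, 0.0577 with the block), from a low naïve mean of 3.88 with 1 of 3 naïve arrays above background.

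Differences between ligands were tested as contrasts in 1 fit of all 9 groups, 6 pairs for the acute level and 6 for the change on re-stimulation. For the acute level, 7 of 36 gene and pair combinations were called. Against LPS, 2 of 6 genes were called with CpG (17% of probes), 2 with Pam3CSK4 (19.4%) and 1 with Poly(I:C) (11.6%). Stat2 was higher with LPS than with CpG by 1.66 ± 0.32 (adjusted p = 0.00209) and than with Pam3CSK4 by 3.05 ± 0.36 (adjusted p = 2.8e-05). Stat3 was higher with LPS than with CpG by 1.18, Pam3CSK4 by 1.62 and Poly(I:C) by 0.97 (adjusted p = 0.00112, 9.9e-05 and 0.00553). Its second probe was called against CpG and Pam3CSK4, at 0.90 and 1.54 (adjusted p = 0.0125 and 0.000412), but not against Poly(I:C), at 0.68 (adjusted p = 0.0629).

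Between ligands that share slides, the first probe of Stat2 was called in 2 pairs. It was lower with CpG than with Poly(I:C) by -1.79 ± 0.32 (adjusted p = 0.00302), 1 of 6 genes against 4.82% of probes, and lower with Pam3CSK4 than with Poly(I:C) by -3.18 ± 0.36 (adjusted p = 4.4e-05), 1 of 6 against 7.81%. The second Stat3 probe was also called lower with Pam3CSK4 than with Poly(I:C), at -0.87 (adjusted p = 0.0471), where the first was not. Between CpG and Pam3CSK4 0 of 6 genes and 0.0433% of probes were called. For the change on re-stimulation, 4 of 36 were called, all with LPS as 1 of the ligands. There were 1 with CpG (7.07% of probes), 2 with Pam3CSK4 (7.98%) and 1 with Poly(I:C) (3.97%), and they concern Stat3 and Stat4. The second Stat3 probe was called against CpG and Pam3CSK4 as the first was, but not against Poly(I:C), at -0.85 (adjusted p = 0.178). Between CpG and Pam3CSK4, CpG and Poly(I:C), and Pam3CSK4 and Poly(I:C) 0 of 6 genes were called, and 0.00378%, 0.0396% and 0.119% of probes were.

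The kinases, ligands and inhibitors around the STATs were described by list. Of the 4 Janus kinases, Jak2 rose in acute LPS, CpG and Poly(I:C) cells by 2.93, 2.85 and 2.46 (adjusted p = 0.000990, 0.00973 and 0.0189, the last 2 becoming 0.0509 and 0.0624 with the block). Tyk2, the kinase of the interferon receptor, rose in acute LPS cells by 0.82 (adjusted p = 0.0491). Over all probes 26.5% were called in acute LPS, 5.72% in CpG and 6.03% in Poly(I:C) cells. No Janus kinase was called between re-stimulated and acute cells of any of the 4 ligands. Over all probes 34.2% were called there with LPS, 3.56% with CpG, 0% with Pam3CSK4 and 4.93% with Poly(I:C). Jak2 was called higher than naïve in all 4 re-stimulated groups, with means of 13.07 to 13.89 against 10.81, and with the block the Pam3CSK4 call ended (adjusted p = 0.0546). Against naïve cells 5.66% of all probes were called with LPS, 13.1% with CpG, 5.36% with Pam3CSK4 and 9.03% with Poly(I:C).

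Of the cytokines that activate STATs, 12 of 16 tested rose in acute LPS, 7 of 17 in CpG and 5 of 13 in Poly(I:C) cells, and none fell. Over all probes 26.5%, 5.72% and 6.03% were called there. With the block 5 rose in CpG and 6 in Poly(I:C) cells. Il6 had the largest rise, by 12.89, 11.81 and 9.20 (adjusted p = 0.000102, 0.00236 and 0.00135). Its naïve mean was low, at 2.95 with 1 of 3 arrays above background, so the size of these rises is uncertain. On LPS re-stimulation 12 of 17 fell and 3 rose, against 34.2% of all probes. Il12b, a subunit of interleukins 12 and 23, fell by 5.29 (adjusted p = 0.000171), and Il4 rose by 1.48 (adjusted p = 0.00411) at low values of 4.19 and 5.68. On CpG re-stimulation 2 of 17 fell, against 3.56% of all probes, Il15 by 3.33 (adjusted p = 0.0160), with 3 lower and 1 higher with the block.

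Of the receptor chains through which these cytokines act, some rose and some fell. In acute LPS cells 3 of 24 rose and 6 fell, where 26.5% of all probes were called. Il2ra was higher by 4.25 (adjusted p = 0.0193), from a low naïve mean of 4.06 with 1 of 3 naïve arrays above background. Il6ra, the interleukin 6 receptor, was lower by -3.06 (adjusted p = 0.000787). Il6ra was also the call in acute CpG and Poly(I:C) cells, at -2.33 and -1.81 (adjusted p = 0.0309, 0.0566 with the block, and 0.0364). It was 1 of 23 tested with CpG and 1 of 22 with Poly(I:C), against 5.72% and 6.03% of all probes. With the block 3 receptor chains rose and 1 fell in acute Poly(I:C) cells. On LPS re-stimulation 12 of 24 rose and 4 fell, against 34.2% of probes, led by Il23r at 3.98 and Il2ra at -3.43 (adjusted p = 0.000373 and 0.00566). Il23r was above background on no acute CpG or Poly(I:C) array and was at least 7.30-fold and 13.95-fold higher on re-stimulation (adjusted p = 0.0441 and 0.0440). Il10ra fell by 1.06 on CpG re-stimulation (adjusted p = 0.0441). Of 24 tested, 1 rose and 1 fell with CpG and 1 rose with Poly(I:C), against 3.56% and 4.93% of all probes. With the block, 2 rose and 2 fell on re-stimulation with CpG and 2 rose with Poly(I:C).

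Of 18 inhibitors, 7 rose and 1 fell with LPS, where 26.5% of all probes were called, 3 rose with CpG (5.72%) and 5 with Poly(I:C) (6.03%). Socs1, which blocks Janus kinases, had the largest rise with LPS and Poly(I:C), at 5.96 and 6.69 (adjusted p = 0.000226 and 0.00109), and Socs3 with CpG. With the block 1 was called with CpG. Pias3, a SUMO ligase that holds back Stat3, fell by 1.36 with LPS (adjusted p = 0.0140). On LPS re-stimulation 7 fell and 2 rose, against 34.2% of probes, with Socs1 at -2.68 and Socs2 at 1.45 (adjusted p = 0.00200 and 0.0111). The Socs2 means were low, at 4.02 and 5.46. On re-stimulation with CpG Cish fell by 3.06 (adjusted p = 0.0390), and with Poly(I:C) Socs7 fell by 1.94 (adjusted p = 0.0309), 1 gene each, against 3.56% and 4.93% of all probes. Of the 7 partners and coactivators, Nmi, an interferon-induced STAT binder, rose by 2.18 with LPS and 1.93 with Poly(I:C) and fell by 0.97 on LPS re-stimulation (adjusted p = 0.00123, 0.0146 and 0.0187). Ncoa1 fell by 1.04 with CpG (adjusted p = 0.0472, 0.0920 with the block). With Pam3CSK4 no gene of any list was called in acute cells or on re-stimulation. As 0% of all probes were called in either comparison, this says nothing particular about these lists.

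**Figure D5:**
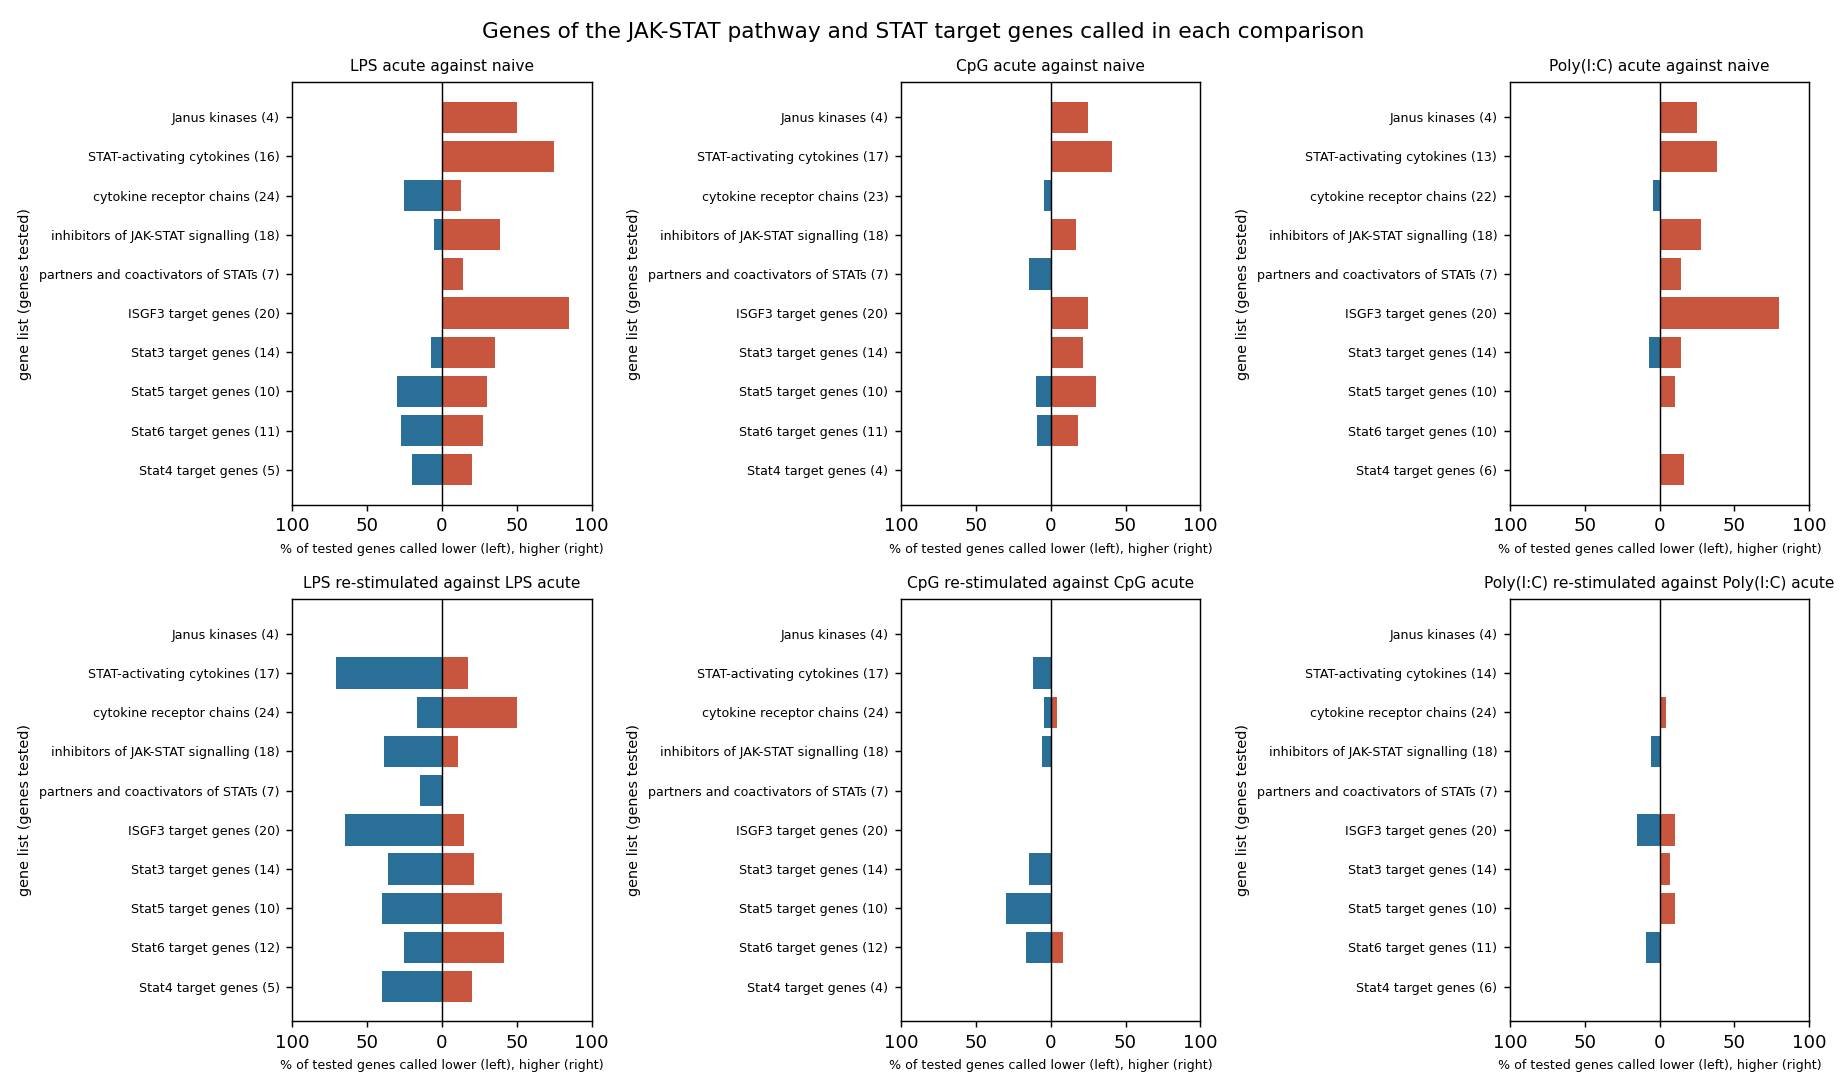
Bars give the percent of tested genes of each list (y axis, with the number tested) that were called higher (right, red) or lower (left, blue) in acute and re-stimulated cells of LPS, CpG and Poly(I:C) (x axis, percent). ISGF3 target genes rose in 17 of 20 cases with LPS and 16 of 20 with Poly(I:C), and 12 of 17 tested cytokines fell on LPS re-stimulation. Over all probes 26.5%, 6.03% and 34.2% were called in these comparisons.

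The 6 genes were compared with each other and with all genes over the 9 group means. Pearson's r, over 9 points that share arrays and normalization, ran from -0.80 between Stat5a and Stat6 to 0.64 between Stat2 and Stat3, and was 0.62 between Stat5a and Stat5b. Among 9835 genes whose group means spanned at least 1 log2 unit, those most like Stat2 were Trim34a (r = 0.99), Gm4951 (r = 0.99) and Vmn1r219 (r = 0.98). For Stat3 they were Tpr (r = 0.99), Sptlc2 (r = 0.98) and Chd1 (r = 0.97), and for Stat5a Tab2 (r = 0.98), Cd44 (r = 0.98) and Rras2 (r = 0.98). For Stat4 they were Omg (r = 0.92), Gm10624 (r = 0.92) and Nrxn2 (r = 0.90). Those of Stat5b were Lifr (r = 0.95), Pikfyve (r = 0.95) and Snap29 (r = 0.94), and those of Stat6 Wbp1 (r = 0.98), Fbxo32 (r = 0.98) and E130303B06Rik (r = 0.97).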

How the data were processed

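RNA of 27 BMDM samples was hybridised to 1-colour Agilent arrays of 62976 spots. The authors corrected the background with RMA and normalized between arrays by quantiles, and deposited log2 values for 25 arrays, having left out replicate 3 of re-stimulated LPS and replicate 2 of acute Pam3CSK4 cells for quality. These values, 0.943 to 18.8, were used as deposited. Scanner files (Feature Extraction 10.7.3.1), which hold intensities per spot as deposited by the authors, gave the detection flags and the alternative normalizations. Values rebuilt from them differed from the deposited ones by a median of 0.0355. Quantile normalization gives every array the same distribution, so a shift shared by all probes cannot be seen.

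Groups were compared in pairs with limma 3.58.1 (R 4.3.3, statmod 1.5.0), with p-values adjusted by Benjamini-Hochberg over all probes tested. Differences between ligands were contrasts in 1 fit of all 9 groups. Tested on simulated data for acute CpG against naïve cells (27954 probes, 200 changed), the fit called 39% of probes changed by 2 and 77% of those changed by 4 on the log2 scale, and 5.69% of its calls were false. The replicate number is the slide for all groups but acute LPS. Deviations from the group means were correlated between arrays with the same number (30814 probes). With 3 pairs each, r was 0.104 to 0.437 in the CpG and Poly(I:C) comparisons and 0.170 to 0.237 between re-stimulated Pam3CSK4 and naïve cells. With 2 pairs each, it was 0.487 to 0.524 between acute Pam3CSK4 and naïve cells and 0.219 to 0.223 between re-stimulated and acute Pam3CSK4 cells. The main calls and p-values are from fits without pairing, and results with the replicate as a block are given as an alternative. Values are from the first probe of a gene. From each list, the gene with the largest called rise and the one with the largest called fall were named in the acute and re-stimulated comparisons, with Irf9 and Ifnb1 shown beside Stat2, and the Janus kinases described in full. The most alike genes were the 3 with the highest correlation over group means spanning at least 1 log2 unit. The members and the gene lists were chosen with earlier results of these data known. Alternatives tried were values made again, all 27 arrays, normexp, 75th percentile and median scaling, no detection filter, 1 fit of all groups, slide as a random block, the replicate block, no minimum change, the mean over probes, and leaving out each array.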

Additional observations from a re-analysis of the deposited data

Results flagged for a closer look

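The change of 2 genes on re-stimulation differed between LPS and other ligands, as tested by contrasts in the limma fit of all 9 groups. For Stat3 the change was lower with LPS than with CpG by -1.50 ± 0.31 (SE, adjusted p = 0.0111), than with Pam3CSK4 by -1.69 ± 0.33 (adjusted p = 0.00698) and than with Poly(I:C) by -1.29 ± 0.31 (adjusted p = 0.0297). It fell by 1.46 with LPS, while the other differences were 0.04, 0.23 and -0.17, none called. For Stat4 the change was lower with LPS than with Pam3CSK4 by -3.26 ± 0.70 (adjusted p = 0.0118), from a fall of 1.38 with LPS and a difference of 1.88 with Pam3CSK4. The second Stat3 probe was called against CpG and Pam3CSK4 but not against Poly(I:C), at -0.85 (adjusted p = 0.178). With all 27 arrays 0 of these 4 differences of the first probes were called, and with median scaling 1 difference was called in all. Since acute LPS arrays lay on slides of their own, ligand and slide cannot be told apart in any of these differences. No group has more than 3 arrays, so single arrays were not tested for standing apart.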

How the results depend on the processing

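No called difference of a STAT gene turned direction under any alternative. Of 792 values over genes, comparisons and processing alternatives, 709 kept their direction and side of the threshold, 12 lost the call, 31 gained it, and 40, none of them called, changed sign. Of 408 values with 1 array left out, these counts were 363, 19, 7 and 19. The cause was not tested. Calls numbered 5 of 24 in acute against naïve cells, 4 in re-stimulated against acute cells, 2 in re-stimulated against naïve cells, and 7 and 4 of 36 in the ligand differences of acute level and of change. With slide as a random block they were 8, 7 and 6 for the comparisons of 2 groups. Re-stimulated against naïve cells gave 4 with median scaling and with the mean over probes, 1 with no detection filter and with the replicate block, and 6 in 1 fit of all 9 groups. With all 27 arrays the ligand differences gave 3 and 0 calls, and with median scaling 3 and 1. With 1 array left out the 5 counts ran from 3 to 6, 3 to 5, 0 to 4, 7 to 7 and 1 to 6. The median over all tested probes was 0.11 to 0.81 in the 12 comparisons with median scaling and -0.10 to 0.06 with the deposited values, and differences under median scaling include that shift.

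The replicate block ended the call of Stat6 in acute LPS cells (adjusted p = 0.107) and of Stat2 in re-stimulated Pam3CSK4 against naïve cells (adjusted p = 0.0982), and no other call of a first probe. Acute LPS arrays share only a number with the others, and same-numbered arrays correlated at 0.0103 to 0.0951 in their comparisons. Re-stimulated LPS and naïve arrays share slides 1 and 2, as 2 pairs that correlated at 0.0805 and 0.0830. The block gave 5778 in place of 7918 calls in acute against naïve, 10619 in place of 9772 in re-stimulated against acute and 4757 in place of 1581 in re-stimulated against naïve cells. Under the block the Stat6 difference of re-stimulated against acute Pam3CSK4 cells was -0.03.

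Signs changed as follows. With all 27 arrays, acute Pam3CSK4 against naïve gave -0.77 for Stat3 and 1.58 for Stat4, re-stimulated against acute Pam3CSK4 gave 0.61 for Stat2 and 1.40 for Stat5b, and re-stimulated LPS against naïve gave 0.30 for Stat4. With the 75th percentile, Stat5b was 0.16 in acute CpG cells, and against naïve cells Stat6 was 0.21 in re-stimulated LPS, 0.0034 in Pam3CSK4 and 0.17 in Poly(I:C) cells, while in re-stimulated CpG cells Stat2 was 0.064 and Stat5a 0.080. With median scaling, acute against naïve gave 0.15 (LPS), 0.61 (CpG) and 0.00073 (Pam3CSK4) for Stat5b, 0.42 (CpG) and 0.31 (Poly(I:C)) for Stat6 and 0.0016 (Pam3CSK4) for Stat4. Re-stimulated against acute gave 0.092 (CpG) and 0.26 (Pam3CSK4) for Stat5b, and with Poly(I:C) 0.058 for Stat2, 0.12 for Stat3 and 0.15 for Stat4. Re-stimulated against naïve gave, in the order LPS, CpG, Pam3CSK4 and Poly(I:C), 0.17, 0.94, 0.35 and 0.28 for Stat5a, 0.13, 0.71, 0.27 and 0.19 for Stat5b, and 0.56, 0.83, 0.41 and 0.87 for Stat6, and 0.84 for Stat2 with CpG. With the mean over probes, Stat5b was 0.061 in acute LPS cells, Stat3 -0.060 in re-stimulated against acute CpG, Stat6 -0.091 in re-stimulated against acute Pam3CSK4 and 0.058 in re-stimulated LPS against naïve cells.

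With 1 array left out, the uncalled differences whose sign changed had these ranges. In acute against naïve cells they were -0.23 to 0.59 for Stat2, -0.045 to 0.59 for Stat4 and -0.095 to 0.029 for Stat5b with CpG, and -0.11 to 0.37 for Stat3 and -0.41 to 0.27 for Stat4 with Pam3CSK4. In re-stimulated against acute cells they were -0.053 to 0.16 for Stat3 and -0.21 to 0.18 for Stat6 with CpG, -0.014 to 0.47 for Stat3 and -0.030 to 0.29 for Stat6 with Pam3CSK4, and -0.53 to 0.11 for Stat4 with Poly(I:C). In re-stimulated against naïve cells they were -0.10 to 0.0024 for Stat5a with CpG, and -0.22 to 0.54 for Stat4 and -0.10 to 0.11 for Stat6 with Poly(I:C). All probes of the members were well above background on every array used.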
